A study of Mus musculus with 12 samples.

Results

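Serotonin receptor genes were examined by RNA sequencing of medial prefrontal cortex, all from female mice. The set held 10 genes, Htr1a, Htr1b, Htr1d, Htr1f, Htr2a, Htr2c, Htr3a, Htr4, Htr5a and Htr7, taken by symbol from a table of 24411 gene symbols. All 10 had enough counts to be tested, as did 15199 symbols in all.

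The 12 libraries formed 4 groups of 3. Stressed KO and unstressed KO mice lacked Cav3.1, the T-type calcium channel encoded by Cacna1g, on a C57BL/6J background, and stressed WT and unstressed WT mice were C57BL/6J. Stress was a 5-min forced swim or tail suspension test, given once a day for 5 days to mice aged 8 to 12 weeks. KO mice came from RIKEN BRC and WT mice from Clea Japan, so genotype and colony cannot be told apart. Whether the 3 libraries of a group are separate animals is not labelled, and p-values therefore measure the spread between these libraries, which may be technical. As a check of the labels, Cacna1g stood between 54.6 and 65.95 CPM in the 6 KO libraries and between 109.4 and 144.1 CPM in the 6 WT libraries. Transcripts of the gene were thus still counted in KO libraries, and which part of it is deleted is not labelled. Levels are in CPM, the usual scaling of counts by the normalised size of each library.

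Serotonin reaches the prefrontal cortex through axons of the raphe nuclei and acts there on several receptor families. Receptors of the 5-HT1 and 5-HT5 families couple to inhibitory G proteins and lower cyclic AMP, 5-HT2 receptors couple to Gq and phospholipase C, and 5-HT4 and 5-HT7 receptors couple to Gs and raise cyclic AMP. The 5-HT3 receptor is a ligand-gated cation channel. In cortex, 5-HT1A and 5-HT2A receptors are best known on pyramidal neurons, where their actions oppose each other, while the 5-HT3A subunit marks a class of interneurons.

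Markers of neighbouring tissue stood apart in some libraries and are given beside the receptors they moved with. Depth ran between 15469590 and 31082240 estimated counts per library. The 6 markers of cortical excitatory neurons, Slc17a7 among them, were present in every library, with a summed level of 4537 to 5845 CPM in stressed KO, 5338 to 6259 CPM in unstressed KO, 5165 to 5965 CPM in stressed WT and 3833 to 5891 CPM in unstressed WT. The 10 olfactory bulb markers summed to 1030 and 1073 CPM in unstressed WT libraries 1 and 2, 132.3 CPM in unstressed WT library 3, and between 26.2 and 137.2 CPM in the other 9. All 10 were lower in stressed than in unstressed WT past the threshold, and 1 of them, Barhl2, had no count in some libraries. The 10 striatal projection neuron markers summed to 791.9 CPM in stressed KO library 1 and between 208.5 and 266.7 CPM elsewhere, and none of them was at 0 in any library. The 3 markers of raphe serotonin neurons had few counts in this tissue. Slc6a4, the serotonin transporter, had 0 to 12 counts, the 12 in each of unstressed WT libraries 1 and 2. Fev, their defining transcription factor, had 0 or 1 count per library. Tph2, a tryptophan hydroxylase, had 5 to 16 counts and was above 0 in every library.

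Per kilobase of exon the mean levels of the receptors formed a graded order. Htr2a averaged 6.46 ± 1.27 CPM per kb (SD over 12 libraries), Htr1a 5.93 ± 1.34, Htr5a 5.27 ± 0.42, Htr2c 4.41 ± 1.35 and Htr3a 3.56 ± 0.72, and the mean ± SD ranges of neighbours in this order overlapped. Htr7, at 2.05 ± 0.38 CPM per kb, and Htr1f, at 1.97 ± 0.48, came below Htr3a by more than the SDs and did not differ from each other beyond them. Their highest libraries, at 2.73 and 2.7 CPM per kb, still lay above the lowest library for Htr3a, at 2.51. Htr1b stood lower, at 0.742 ± 0.194 CPM per kb, with a range over the libraries that did not reach that of Htr1f. Htr1d, at 0.322 ± 0.176, and Htr4, at 0.228 ± 0.146, closed the order with overlapping SDs. Lengths were the union of annotated exons, and with the longest transcript instead Htr2c, with 4883 bases in place of 9328, moved to the top at 8.42 ± 2.58 CPM per kb, while the order of the other 9 did not change. By the exon union Htr2a made up 20.9% of the summed level per kb of the 10 genes and Htr4 0.738%.

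**Figure D1:**
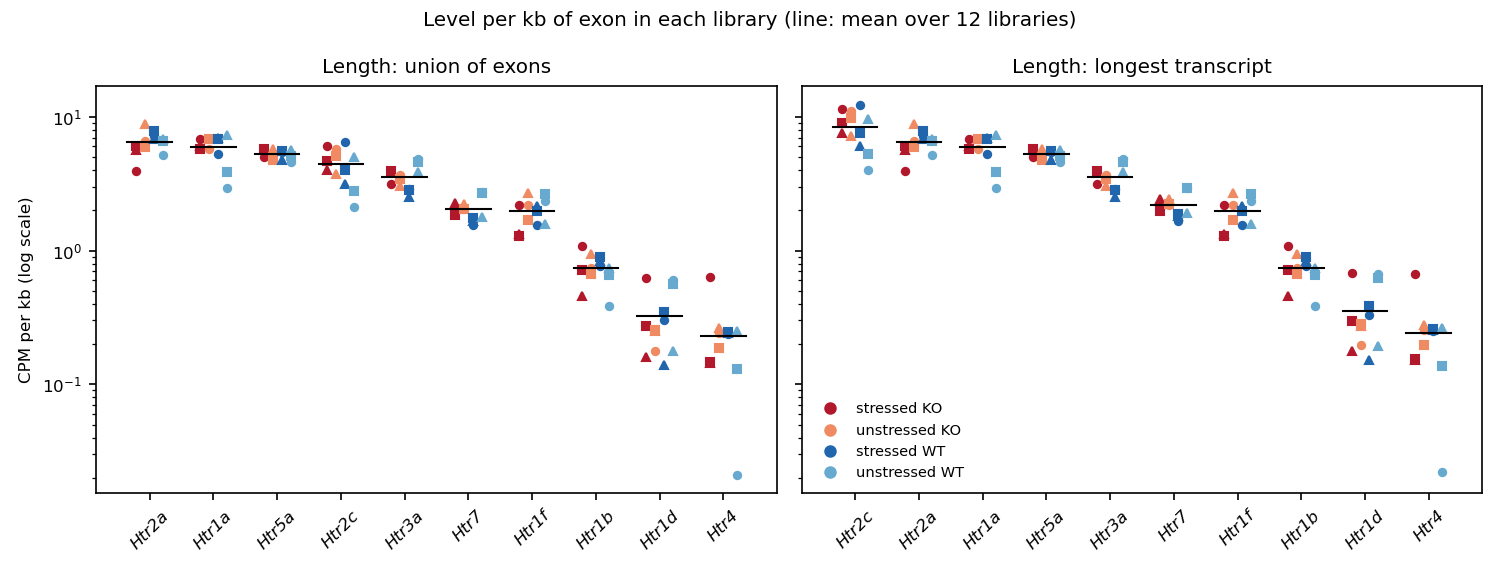
Level of each receptor gene per kb of exon (log scale) in each of the 12 libraries, coloured by group with circles, squares and triangles for libraries 1, 2 and 3, and a line at the mean. The left panel uses the union of exons and the right panel the longest transcript; Htr2c moves from a mean of 4.41 to 8.42 CPM per kb between them, and Htr1d and Htr4 lie lowest in both.

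Sequence around the start of the gene is shown for Htr7, which passed for stress in WT, Htr5a, the steadiest of the 10 genes, and Htr1a, whose level was lowest in the libraries with olfactory bulb markers, as the 250 bases before the RefSeq start on GRCm38.p6, 5′ to 3′ on the gene's strand. Such stretches were searched for 8 of the 10 members, all but Htr3a and Htr4, and the motif counts below cover these 8 only. RefSeq and the GENCODE annotation differ in where a gene starts, so 147 of the 250 bases for Htr7, with all 13 marked bases, and 54 of those for Htr1a lie inside the GENCODE gene, and 0 of those for Htr5a. The Htr7 stretch is chr19:36057361-36057610 (minus strand), the Htr5a stretch chr5:27841697-27841946 (plus) and the Htr1a stretch chr13:105443443-105443692 (plus). Capitals mark matches, on either strand, to the GC box GGGCGG, the Egr site GCGTGGGCG, the TATA box TATAAA, the cAMP response element TGACGTCA, its shortened core TGACG or the glucocorticoid response element core ACANNNTGT.
Htr7: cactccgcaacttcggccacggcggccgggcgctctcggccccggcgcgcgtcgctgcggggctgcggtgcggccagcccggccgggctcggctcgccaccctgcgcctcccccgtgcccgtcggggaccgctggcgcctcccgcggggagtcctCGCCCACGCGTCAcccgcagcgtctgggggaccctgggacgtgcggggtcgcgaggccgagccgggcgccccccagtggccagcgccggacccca
Htr5a: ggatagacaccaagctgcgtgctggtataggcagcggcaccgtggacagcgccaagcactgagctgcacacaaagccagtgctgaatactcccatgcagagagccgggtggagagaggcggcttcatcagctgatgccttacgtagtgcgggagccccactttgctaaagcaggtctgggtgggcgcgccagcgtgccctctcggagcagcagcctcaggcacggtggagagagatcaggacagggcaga
Htr1a: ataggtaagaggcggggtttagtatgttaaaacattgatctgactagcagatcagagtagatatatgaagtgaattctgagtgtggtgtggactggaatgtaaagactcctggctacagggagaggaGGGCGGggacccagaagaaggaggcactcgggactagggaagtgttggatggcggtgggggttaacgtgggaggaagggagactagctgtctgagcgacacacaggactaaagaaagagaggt
The Htr7 stretch was 82.0% G and C, against a median of 52.4% over 32851 promoters, and held an Egr site, found in 0.536% of them, that shares a base with a shortened cAMP core, found in 17.8%. The Htr5a stretch held none of these motifs and the Htr1a stretch a GC box, found in 32.7% of promoters. A GC box was present in 3 of the 8 members, and the glucocorticoid core (5.84% of promoters), the full cAMP element (1.55%) and the TATA box (12.4%) in 0 of 8. A match is a description of the letters and does not show a bound factor.

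The receptors with inhibitory coupling were led by Htr1a (chromosome 13, 105443639 to 105448122, plus strand, GRCm38), which encodes the 5-HT1A receptor, also the autoreceptor of raphe neurons. Htr1a stood at 30.6, 25.8 and 27.3 CPM in stressed KO libraries 1 to 3, 25.6, 30.8 and 30.3 CPM in unstressed KO, 23.6, 30.4 and 31.3 CPM in stressed WT, and 13.1, 17.5 and 32.7 CPM in unstressed WT. Unstressed WT libraries 1 and 2, which carried the olfactory bulb markers, were the lowest of all 12, and the third unstressed WT library was the highest. The groups overlapped in every comparison, and Htr1a did not pass in stressed against unstressed WT (log2 fold change 0.43 ± 0.26, SE, edgeR adjusted p = 0.231) or in unstressed KO against unstressed WT (0.45 ± 0.26, adjusted p = 0.209). Without unstressed WT library 3 both comparisons passed, at 0.89 ± 0.15 (edgeR adjusted p = 0.0012) and 0.90 ± 0.15 (adjusted p = 0.00112), and so did the interaction (-0.92 ± 0.20, adjusted p = 0.00864), the average stress effect (0.42 ± 0.10, adjusted p = 0.0138) and the average genotype effect (0.44 ± 0.10, adjusted p = 0.0105). In that setting 36.4%, 36.8%, 25%, 19.6% and 21.8% of all tested genes were called in these comparisons, in the order given. Without unstressed WT libraries 1 and 2 the stress difference in WT was -0.20 ± 0.17 (adjusted p = 0.639), with the other sign.

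Htr5a (chromosome 5, 27842149 to 27855088, plus strand), encoding a receptor of the 5-HT5 family, was the steadiest member. It stood at 27.1, 30.8 and 30.4 CPM in stressed KO libraries 1 to 3, 28.3, 25.7 and 30.7 CPM in unstressed KO, 29.5, 29.6 and 25.4 CPM in stressed WT, and 24.5, 27.3 and 30.6 CPM in unstressed WT. All 12 values lay between 24.5 and 30.8 CPM, a span of 1.26-fold, and the SD of log2 CPM over the libraries was 0.118, against a median of 0.201 over all tested genes; 17.7% of tested genes varied less. Its log2 fold change was 0.058 for stress in KO (95% interval -0.17 to 0.29), 0.036 for stress in WT (-0.19 to 0.26), 0.040 for genotype without stress (-0.19 to 0.27) and 0.062 for genotype with stress (-0.17 to 0.29). The 4 pairs of groups overlapped, and none of the 4 intervals reached beyond 0.29 on the log2 scale.

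Htr1b (chromosome 9, 81628291 to 81633828, minus strand) encodes the receptor that curbs transmitter release from axon terminals. It stood at 5.12, 3.38 and 2.18 CPM in stressed KO libraries 1 to 3, 3.51, 3.15 and 4.48 CPM in unstressed KO, 3.62, 4.24 and 3.96 CPM in stressed WT, and 1.82, 3.13 and 3.51 CPM in unstressed WT. Its stressed WT libraries lay above the unstressed WT libraries without overlap, as did 19.4% of all tested genes, but the difference did not pass (log2 0.48 ± 0.29, SE, edgeR adjusted p = 0.247). Its exons overlap those of D430036J16Rik on the opposite strand, and with no strand setting stated for the counting, reads of the pair cannot be told apart with certainty.

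Htr1f (chromosome 16, 64924729 to 65105854, minus strand), encoding a receptor targeted by migraine drugs, stood at 5.61, 3.33 and 3.46 CPM in stressed KO libraries 1 to 3, 5.64, 4.34 and 6.97 CPM in unstressed KO, 4.02, 5.05 and 5.53 CPM in stressed WT, and 6.06, 6.78 and 4.04 CPM in unstressed WT. Its groups overlapped in all 4 pairwise comparisons, and its log2 fold changes lay between -0.43 for stress in KO and 0.0042 for genotype without stress, with edgeR adjusted p of 0.639 and 0.993.

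Htr1d (chromosome 4, 136423524 to 136444398, plus strand), a close relative of Htr1b, was near the detection limit. It had 57, 18 and 8 counts in stressed KO libraries 1 to 3, 15, 18 and 16 in unstressed KO, 24, 26 and 13 in stressed WT, and 56, 59 and 17 in unstressed WT. In CPM, stressed KO library 1 (1.98, exact Poisson 95% interval 1.5 to 2.57) and unstressed WT libraries 1 (1.93, 1.46 to 2.5) and 2 (1.81, 1.38 to 2.33) stood above the other 9 libraries, which lay between 0.444 and 1.11. These intervals cover counting error only. The 3 high libraries are those in which striatal or olfactory bulb markers were raised, and the part of such tissue in the Htr1d level was not tested. No comparison of Htr1d passed with all libraries, and its log2 fold change had the opposite sign in KO (0.70 ± 0.56, SE) and in WT (-0.79 ± 0.53) under stress, with an interaction of 1.48 ± 0.77 (edgeR adjusted p = 0.220). Without unstressed WT library 3, 25% of all tested genes were called for the interaction and 36.8% for genotype without stress. In that setting the Htr1d interaction passed (edgeR adjusted p = 0.0475), as did genotype without stress (log2 -1.38 ± 0.46, adjusted p = 0.0357). The signs in WT turned when unstressed WT libraries 1 and 2 were left out, to 0.55 ± 0.70 for stress in WT (adjusted p = 0.767) and 0.36 ± 0.71 for genotype without stress (adjusted p = 0.848), and the interaction was 0.16 ± 0.86 (adjusted p = 0.956). Without stressed KO library 1 as well, the interaction was -0.58 ± 0.70 (adjusted p = 0.742), so the sign of the interaction rested on these libraries.

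**Figure D2:**
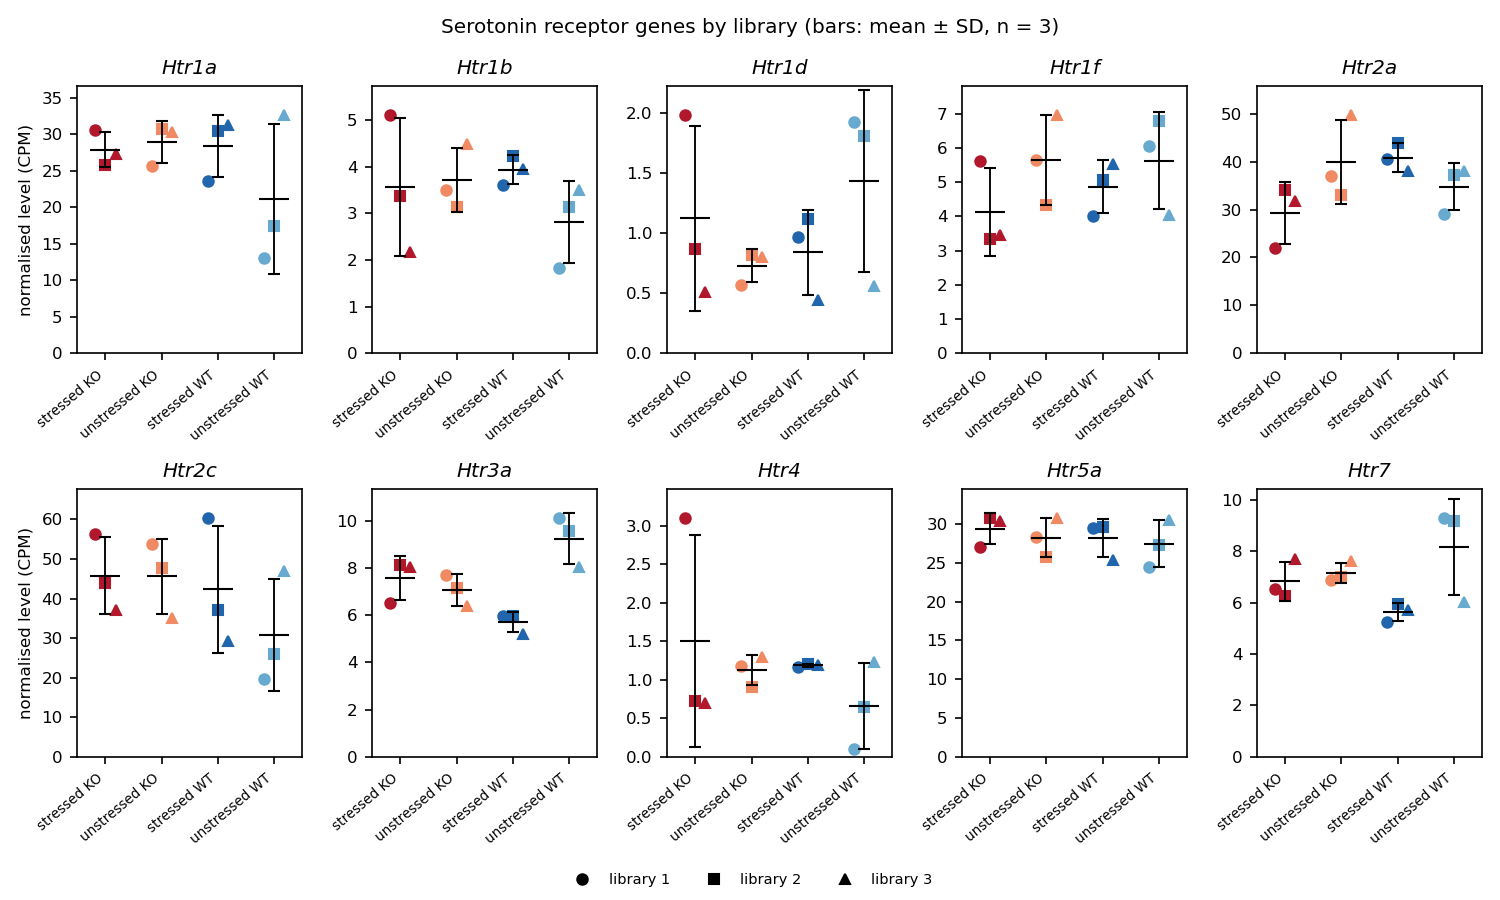
Normalised level in CPM of each of the 10 receptor genes in each library, by group, with circles, squares and triangles for libraries 1, 2 and 3 and bars for the mean ± SD (n = 3). Htr5a is level across the groups, unstressed WT libraries 1 and 2 stand low for Htr1a (13.1 and 17.5 CPM) and high for Htr7 (9.29 and 9.20 CPM), and stressed KO library 1 stands apart for Htr4 at 3.1 CPM.

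Of the Gq-coupled receptors, Htr2a (chromosome 14, 74640840 to 74709494, plus strand) encodes the 5-HT2A receptor, the main target of serotonergic psychedelics. Htr2a stood at 21.9, 34.0 and 31.8 CPM in stressed KO libraries 1 to 3, 37.1, 33.0 and 49.8 CPM in unstressed KO, 40.6, 43.9 and 38.1 CPM in stressed WT, and 29.1, 37.1 and 38.1 CPM in unstressed WT. The stressed KO libraries all lay below the stressed WT libraries, with means of 29.3 ± 6.43 CPM in stressed KO and 40.9 ± 2.95 CPM in stressed WT (SD, n = 3 each), and 11.3% of all tested genes were lower without overlap in the same comparison. The log2 fold change was -0.49 ± 0.18 (SE), and it did not pass (edgeR adjusted p = 0.281). Stressed KO library 1, with the striatal markers, was the lowest at 21.9 CPM. Against unstressed KO the difference was -0.45 ± 0.18 with overlapping groups (edgeR adjusted p = 0.494), and the stress effect in WT was 0.23 ± 0.18 (adjusted p = 0.356). The interaction of these, -0.69 ± 0.25, did not pass either (adjusted p = 0.110). Without stressed KO library 1 the difference was -0.31 ± 0.17 against stressed WT (adjusted p = 0.535) and -0.28 ± 0.17 against unstressed KO (adjusted p = 0.655).

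Htr2c (chromosome X, 146962513 to 147197277, plus strand) encodes the 5-HT2C receptor, whose RNA is edited and which is also strongly expressed in choroid plexus. It stood at 56.2, 43.9 and 37.0 CPM in stressed KO libraries 1 to 3, 53.9, 47.8 and 35.1 CPM in unstressed KO, 60.3, 37.2 and 29.4 CPM in stressed WT, and 19.7, 25.9 and 46.8 CPM in unstressed WT. Libraries differed widely within groups. The stressed WT libraries spanned 29.4 to 60.3 CPM and the unstressed WT libraries 19.7 to 46.8 CPM. Its SD of log2 CPM over the 12 libraries, 0.485, exceeded that of 88.2% of tested genes, and no comparison passed with all libraries. For stress its log2 fold change was 0.0072 ± 0.32 (SE) in KO and 0.46 ± 0.32 in WT, with edgeR adjusted p of 0.997 and 0.314. Without unstressed WT library 3, 36.4% of all tested genes were called for stress in WT and 36.8% for genotype without stress. In that setting the Htr2c stress effect in WT passed at 0.88 ± 0.28 (edgeR adjusted p = 0.0286), as did genotype without stress at 0.99 ± 0.28 (adjusted p = 0.0173). Both had the other sign when unstressed WT libraries 1 and 2 were left out, at -0.15 ± 0.34 (adjusted p = 0.88) and -0.039 ± 0.34 (adjusted p = 0.97). The 8 choroid plexus markers summed to between 4.87 and 11.6 CPM in stressed KO, 3.58 and 5.89 in unstressed KO, 2.77 and 3.75 in stressed WT, and 5.56 and 11.8 in unstressed WT. Ttr, their most abundant transcript in choroid plexus, had at most 16 counts, and Ttr, Folr1 and Otx2 were at 0 in some libraries. Stressed WT library 1, highest for Htr2c, had a choroid plexus sum of 2.77 CPM, the lowest of the 12. Stressed KO library 1, next highest for Htr2c at 56.2 CPM, had a sum of 11.6 CPM. The part of choroid plexus tissue in the Htr2c level was not tested.

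Htr3a and Htr7 were the members that passed the threshold. Htr3a (chromosome 9, 48899213 to 48911099, minus strand) encodes the channel-forming 5-HT3A subunit. It stood at 6.51, 8.15 and 8.07 CPM in stressed KO libraries 1 to 3, 7.70, 7.16 and 6.38 CPM in unstressed KO, 5.99, 5.95 and 5.22 CPM in stressed WT, and 10.1, 9.60 and 8.05 CPM in unstressed WT. Every stressed WT library was below every unstressed WT library, as for 17.2% of all tested genes, and all 6 KO libraries lay between 6.38 and 8.15 CPM, above stressed WT. Htr3a averaged 5.72 ± 0.434 CPM in stressed WT and 9.25 ± 1.08 CPM in unstressed WT (SD, n = 3 each). It fell with stress in WT, at a log2 fold change of -0.69 ± 0.13 (SE, edgeR adjusted p = 0.0132), 0.618 of the unstressed level. In KO the stress effect was 0.090 ± 0.14 (adjusted p = 0.874), and the difference between the genotypes' responses, 0.78 ± 0.19, did not pass (edgeR adjusted p = 0.0577), though it did in DESeq2 (adjusted p = 0.0109). Unstressed KO libraries lay below unstressed WT without overlap, as did 18% of tested genes, with a log2 fold change of -0.38 ± 0.13 (adjusted p = 0.0564). That comparison passed in DESeq2 (adjusted p = 0.0457), and in edgeR without unstressed WT library 3 (0.0143) or stressed KO library 1 (0.0463). Stressed KO libraries lay above stressed WT, as did 10.8% of tested genes, with 0.40 ± 0.14 (adjusted p = 0.247).

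Htr7 (chromosome 19, 35958734 to 36057507, minus strand) encodes the Gs-coupled 5-HT7 receptor. It stood at 6.55, 6.27 and 7.68 CPM in stressed KO libraries 1 to 3, 6.90, 6.98 and 7.62 CPM in unstressed KO, 5.27, 5.95 and 5.70 CPM in stressed WT, and 9.29, 9.20 and 6.03 CPM in unstressed WT. Unstressed WT libraries 1 and 2 were the highest of the 12 and the third was the lowest outside stressed WT, at 6.03 CPM against 5.95 CPM for the highest stressed WT library. Htr7 averaged 5.64 ± 0.346 CPM in stressed WT and 8.17 ± 1.86 CPM in unstressed WT (SD, n = 3 each). It fell with stress in WT by the test over all libraries, at -0.54 ± 0.16 (SE, edgeR adjusted p = 0.0370). In KO the difference did not pass (-0.073 ± 0.16, adjusted p = 0.925), and the interaction did not pass (0.46 ± 0.23, adjusted p = 0.203). Stressed KO libraries lay above stressed WT without overlap, as did 10.8% of tested genes, and the log2 fold change of 0.27 did not pass. Unstressed KO and unstressed WT overlapped, and the log2 fold change of -0.19 did not pass either.

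Both calls ended without unstressed WT libraries 1 and 2. With both left out, an alternative picked once these libraries had been seen to stand apart, 1 unstressed WT library is left and is assumed to vary like the other groups. In that setting the log2 fold change of Htr3a was -0.49 ± 0.18 (SE, edgeR adjusted p = 0.336) and that of Htr7 was -0.095 ± 0.18 (adjusted p = 0.851). With the mean log2 level of the 10 olfactory bulb markers as a covariate, a setting likewise added later, they were -0.32 ± 0.16 (adjusted p = 0.414) and -0.21 ± 0.24 (adjusted p = 0.724). Leaving out unstressed WT library 2 or stressed WT library 2 alone ended the Htr3a call (adjusted p = 0.0665 and 0.0632). With only the 2 groups compared in the fit, neither passed (adjusted p = 0.0556 for Htr3a and 0.0982 for Htr7). The Htr7 call ended without unstressed WT library 1 (adjusted p = 0.128) or 2 (0.154), without stressed WT library 1 (0.0981), 2 (0.0952) or 3 (0.079), and without unstressed KO library 1 (0.0521). Without unstressed WT library 3, on the other hand, both passed by a wider margin (Htr3a -0.79, adjusted p = 0.00105, and Htr7 -0.72, adjusted p = 0.00114), their interactions passed (adjusted p = 0.00666 and 0.0171), as did their average stress effects (0.0214 and 0.00887) and Htr7 for genotype without stress (-0.38, adjusted p = 0.0303, against 0.25 and adjusted p = 0.535 without unstressed WT libraries 1 and 2), and 4 of the 10 receptors were called for stress in WT, where 36.4% of all tested genes were called in that setting. In the same setting 5 of the 10 receptors were called for genotype without stress and 4 for the interaction, where 36.8% and 25% of all tested genes were called. In bulk tissue, fewer cells of a type and less RNA per cell cannot be told apart. The 10 markers of Htr3a-type interneurons, such as Vip and Reln, summed to between 785.2 and 1120 CPM in stressed KO, 1018 and 1106 in unstressed KO, 904 and 1107 in stressed WT, and 1077 and 1331 in unstressed WT, and none was at 0 in any library. For stress in WT their median log2 fold change was -0.058, with 4 values above 0 and 6 below. Reln (-1.57 ± 0.25, SE), Ndnf (-1.26 ± 0.33), Calb2 (-2.79 ± 0.73) and Adarb2 (-1.22 ± 0.24) passed, all lower, as did 12.1% of all tested genes. All 4 were highest in unstressed WT libraries 1 and 2, Calb2 for example at 306.9 and 317.4 CPM against 47.4 CPM in library 3. Vip (-0.072 ± 0.15), Cck (0.43 ± 0.15) and Cnr1 (0.36 ± 0.21) were among the 6 that did not pass. Pvalb and Sst interneuron markers summed to between 321.4 and 390.3 CPM in stressed WT and between 131.6 and 286.7 CPM in unstressed WT, with 4 of 5 called higher. Markers of meninges and fibroblasts summed to between 36.6 and 83.0 CPM and between 102.4 and 263.9 CPM in the same groups, with 7 of 8 called lower. Of all tested genes 21.9% were called for stress in WT. Unstressed WT libraries 1 and 2 held the extremes, at 131.6 and 163 CPM for the interneuron markers and 221.1 and 263.9 CPM for meninges, against 286.7 and 102.4 CPM in library 3. The part of interneuron number, meninges or of olfactory bulb tissue in the Htr3a and Htr7 values was not tested.

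**Figure D3:**
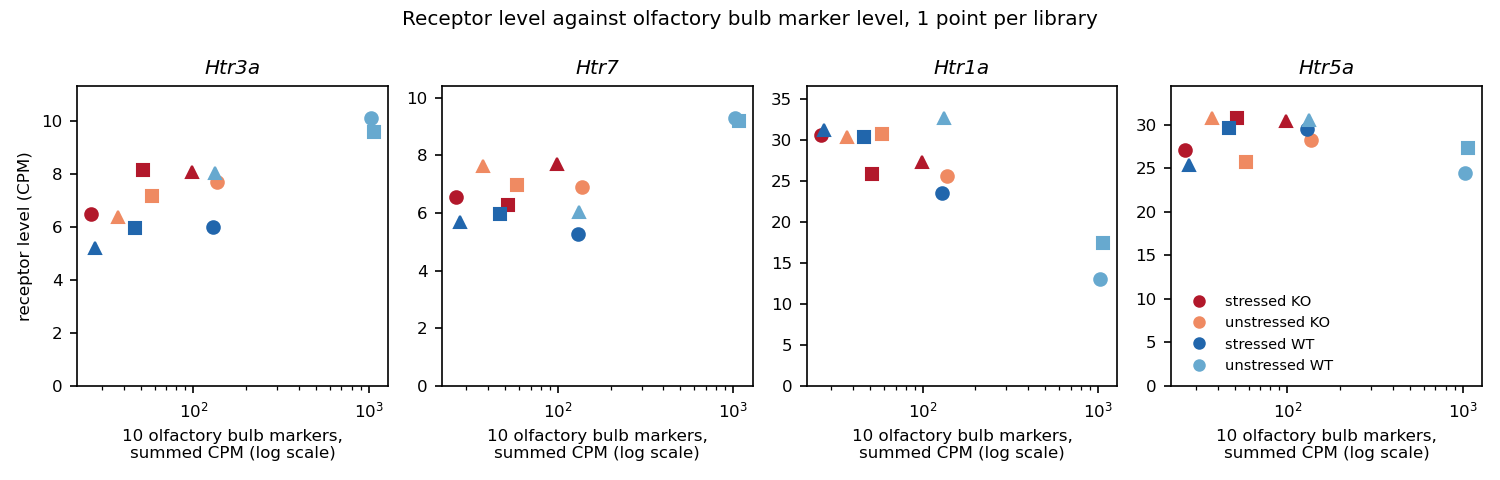
Level of 4 receptors in CPM against the summed CPM of the 10 olfactory bulb markers (log scale), 1 point per library, coloured by group with circles, squares and triangles for libraries 1, 2 and 3. Unstressed WT libraries 1 and 2, at 1030 and 1073 CPM of markers, are highest for Htr3a and Htr7, lowest for Htr1a, and within the range of the other libraries for Htr5a except library 1 at 24.5 CPM.

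**Figure D4:**
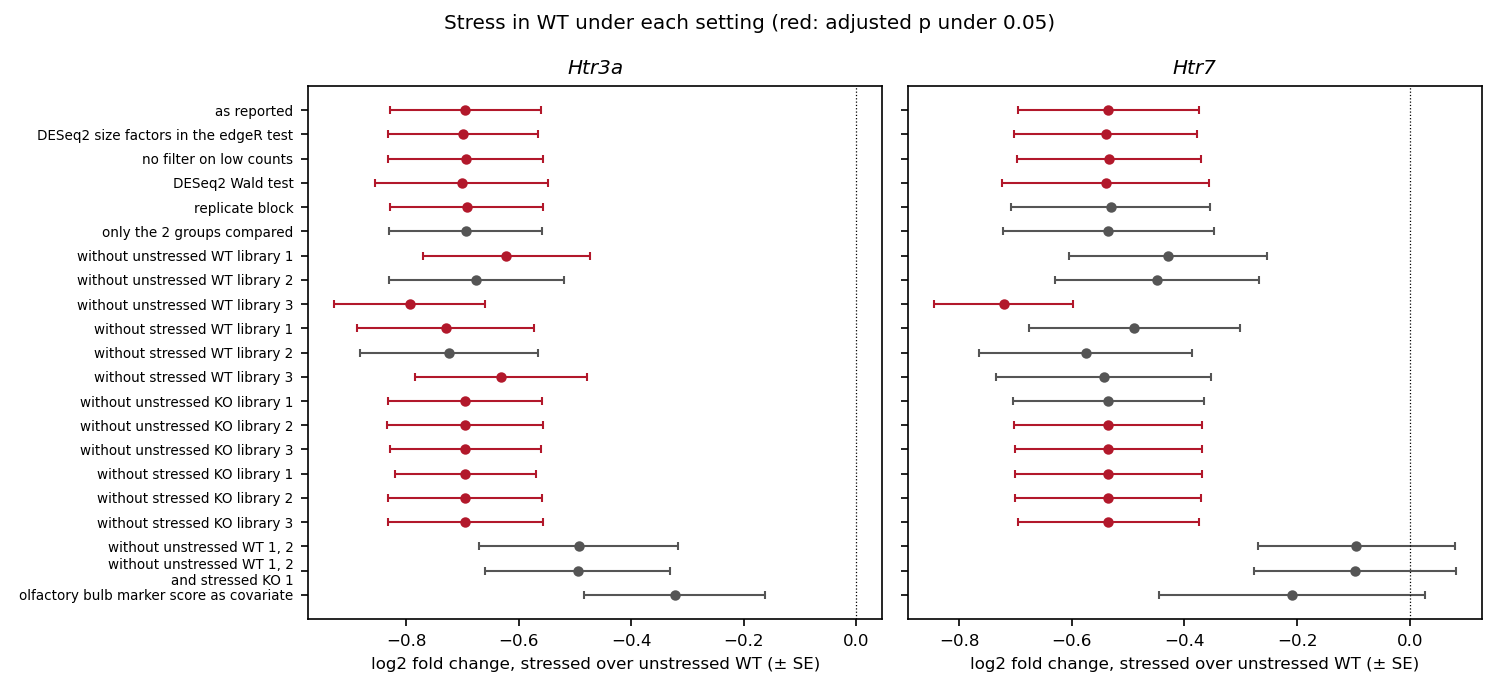
Log2 fold change (± SE) of Htr3a and Htr7 in stressed over unstressed WT as reported and under each of 20 alternatives, red where the adjusted p was under 0.05. All values are below 0; Htr3a lies between -0.79 and -0.32 and Htr7 between -0.72 and -0.095, nearest to 0 in the 3 settings that leave out unstressed WT libraries 1 and 2 or adjust for olfactory bulb markers.

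Htr4 (chromosome 18, 62324204 to 62496577, plus strand), encoding the other Gs-coupled receptor of the set, was low throughout, with the lowest mean per kb of exon and SDs that overlapped those of Htr1d. It had 89, 15 and 11 counts in stressed KO libraries 1 to 3, 31, 20 and 26 in unstressed KO, 29, 28 and 35 in stressed WT, and 3, 21 and 37 in unstressed WT. Unstressed WT library 1, at 0.103 CPM (exact Poisson 95% interval 0.0213 to 0.302), was at the limit that a count of 0 allows, which is 3 counts or between 0.092 and 0.192 CPM in these libraries. Stressed KO library 1 stood at 3.1 CPM (2.49 to 3.81), against 0.723 and 0.704 CPM in the other stressed KO libraries, and its interval lay above those of all other libraries. That library also held 791.9 CPM of striatal markers. The 3 stressed WT libraries were alike, between 1.17 and 1.20 CPM. No comparison of Htr4 passed. The 95% interval of its log2 fold change for stress in KO ran from -0.90 to 1.87, so these libraries were compatible with a fall or a rise within these bounds. Without stressed KO library 1 that value was -0.66 ± 0.62 (adjusted p = 0.799), with the other sign. The stress difference in WT, 0.84 ± 0.66 with all libraries, was -0.045 ± 0.67 without unstressed WT libraries 1 and 2 (adjusted p = 0.982).

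In all, 2 of 10 receptors were called by edgeR's quasi-likelihood test (adjusted p under 0.05) in stressed against unstressed WT, both lower, where 21.9% of all tested genes were called and 12.1% were called lower. At an unadjusted p under 0.05 Htr3a and Htr7 passed, as did 38.2% of all genes. The median log2 fold change of the 10 was 0.13, and that of all tested genes 0.0023. For stress in KO 0 of 10 were called, at a background of 0.0197%, with 1 member (Htr2a) at an unadjusted p under 0.05, as were 9.2% of all genes. Unstressed KO against unstressed WT called 0 of 10 at a background of 23.2%, with 1 member (Htr3a) at an unadjusted p under 0.05, as were 39.1% of all genes. Stressed KO against stressed WT called 0 of 10 at a background of 0.25%, with 2 members (Htr2a and Htr3a) at an unadjusted p under 0.05, as were 13% of all genes. DESeq2 called Htr3a and Htr7 for stress in WT, Htr3a for genotype without stress and for the interaction, and 0 members in the other comparisons. The interaction called 0 of 10 by edgeR (background 0%, 2 members, Htr2a and Htr3a, at an unadjusted p under 0.05, as were 28.5% of all genes). The average stress effect called 0 of 10 (background 0.0395%, 2 members, Htr3a and Htr7, at an unadjusted p under 0.05, as were 23.8% of all genes), and the average genotype effect 0 of 10 (background 6.33%, 0 members at an unadjusted p under 0.05, against 27.4% of all genes). Stress in WT and genotype without stress share the unstressed WT libraries, and their values for a gene are therefore not independent.

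**Figure D5:**
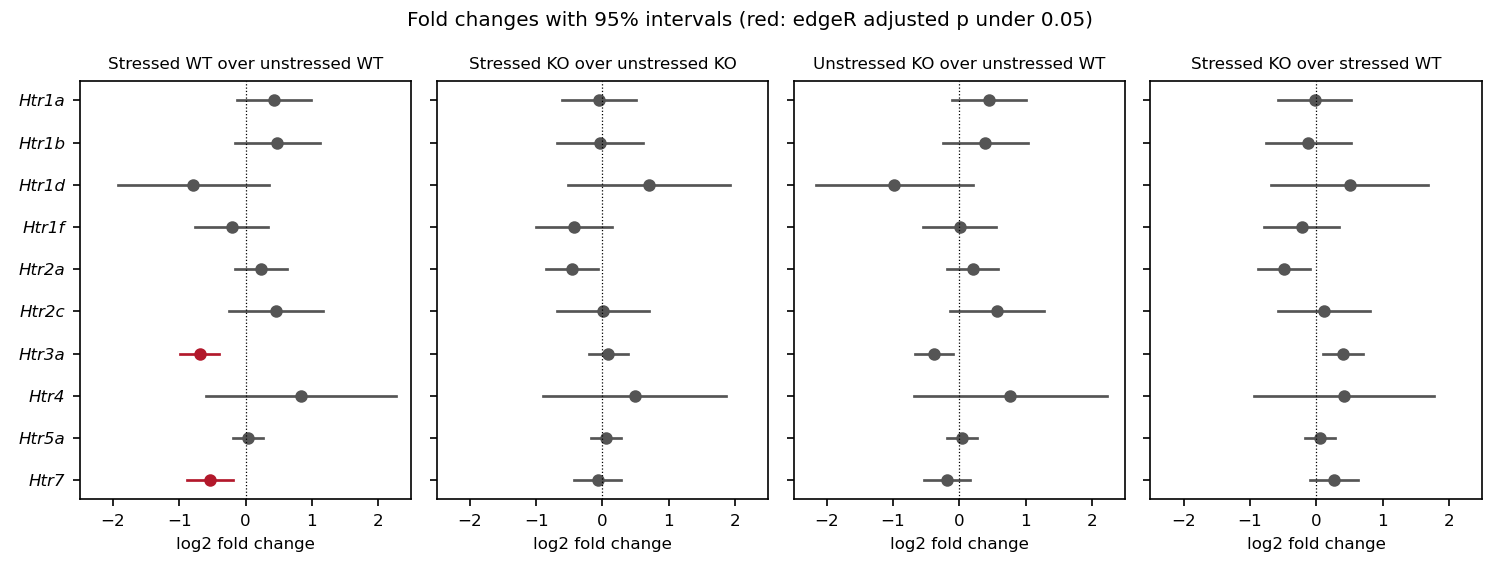
Log2 fold change of each receptor gene with its 95% interval in the 4 pairwise comparisons, red where the edgeR adjusted p was under 0.05. Htr3a (-0.69) and Htr7 (-0.54) for stress in WT are the red points, Htr5a has the narrowest intervals around 0, and Htr1d and Htr4 have the widest.

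Genes whose log2 CPM followed a receptor most closely over the 12 libraries differed from receptor to receptor. These are descriptions over libraries that share depth and tissue make-up. For Htr3a they were Trp53i11 (r = 0.945) and AI854517 (0.935), and the values over the 10 libraries without unstressed WT libraries 1 and 2 were 0.916 and 0.883. For Htr7 they were Ehd4 (0.925), Cbfb (0.918) and Ehhadh (0.904), with 0.816, 0.831 and 0.789 over those 10 libraries. For Htr1a they were Arhgap44 (0.971), Psrc1 (0.968) and Tmem132b (0.961), whose values over those 10 libraries were 0.767, 0.732 and 0.722. Htr2a was followed by Edil3 (0.957), Cdyl2 (0.923) and Atrnl1 (0.921), and Htr2c by Lmo3 (0.908), Tmem150c (0.889) and Tcea2 (0.861). Over those 10 libraries the Htr2c values were 0.842, 0.711 and 0.657. Htr5a was followed by Tfip11 (0.902), Anxa11 (0.884) and Mgat3 (0.883), and Htr1b by Rnf150 (0.936), St3gal1 (0.898) and Ndst1 (0.894). Htr4 was followed by Zdbf2 (0.918), Drd1, the dopamine D1 receptor (0.917), and Slc35f1 (0.917), with 0.717, 0.8 and 0.779 over those 10 libraries. Drd1 is among the striatal markers, and Drd1 and Htr4 were both highest in stressed KO library 1, at 52.78 and 3.1 CPM. Htr1f was followed by Fam35a (0.894) and Pik3r3 (0.866), and Htr1d by Orc3 (0.872), Lmnb1 (0.864) and Lsg1 (0.860). Over those 10 libraries the values for Htr1b, Htr1d, Htr1f, Htr2a and Htr5a lay between 0.764 and 0.966. Among the receptors themselves Htr3a and Htr7 had r = 0.766, Htr1b and Htr4 0.891, and Htr1a and Htr3a -0.703. Unstressed WT libraries 1 and 2 were the highest of the 12 for Htr3a and Htr7 and the lowest for Htr1a. Stressed KO library 1 was the highest for Htr1b and Htr4. The part of these libraries in the r between receptors was not tested.

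Other serotonin receptor genes were scarce. Htr2b had 0 to 4 counts and Htr3b, which encodes the partner subunit of 5-HT3A, 0 or 1 count per library, so neither was tested, and neither is separable from the limit that a count of 0 allows. Htr5b stood at 0.731, 0.530 and 0.768 CPM in stressed KO libraries 1 to 3, 1.18, 0.821 and 0.697 CPM in unstressed KO, 1.29, 0.856 and 0.683 CPM in stressed WT, and 2.72, 2.88 and 1.26 CPM in unstressed WT. It fell in stressed WT against unstressed WT (log2 -1.28 ± 0.35, SE, edgeR adjusted p = 0.0262) and was lower in unstressed KO than in unstressed WT (-1.33 ± 0.35, adjusted p = 0.0231), but unstressed WT libraries 1 and 2 stood highest, and without them the values were -0.42 (adjusted p = 0.688) and -0.47 (adjusted p = 0.631). Each call held in 8 of the 12 sets that leave out 1 library. Htr6, a Gs-coupled receptor, had 43 to 99 counts and did not pass in any comparison.

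Of 12 genes of serotonin synthesis, transport and breakdown, 10 were tested. For stress in WT, Qdpr, which recycles the cofactor of tryptophan hydroxylase, rose (0.54 ± 0.13, SE), and the vesicular monoamine transporter Slc18a2 (-2.96 ± 0.69) and the plasma membrane monoamine transporter Slc29a4 (-0.85 ± 0.19) fell; 7 did not pass, and the median of the list was -0.54; 21.9% of all tested genes were called in this comparison. Qdpr was highest in stressed WT library 3, at 134.6 CPM, and stressed KO library 1, at 127.9 CPM. The 8 oligodendrocyte markers were also highest there, summing to 3316 and 2741 CPM, and 6 of 8 were higher for stress in WT, with sums of 1907 to 3316 CPM in stressed WT and 1294 to 1548 CPM in unstressed WT. Their sums ran between 1227 and 2741 CPM in stressed KO and 1403 and 1660 CPM in unstressed KO, none of the 8 was at 0 in any library, and their part in the Qdpr value was not tested. Slc18a2 had 103 and 138 counts in unstressed WT libraries 1 and 2 and at most 52 elsewhere. In unstressed KO against unstressed WT, Maob (0.48 ± 0.076, adjusted p = 0.00665) was higher and Ddc, the decarboxylase of serotonin synthesis (-0.92 ± 0.27), Gch1 (-1.02 ± 0.33), Slc18a2 (-2.01 ± 0.64) and Slc29a4 (-0.80 ± 0.19) were lower, with a median of -0.27 over the list and 23.2% of all tested genes called. Without unstressed WT libraries 1 and 2, 0 of these 10 were called by edgeR in either comparison. With 1 library left out, the 3 calls for stress in WT held in 8 or 9 of 12 sets, and for genotype without stress Maob held in 12 of 12 and the other 4 in 4 to 9.

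Maob, which encodes monoamine oxidase B, was the gene of this list that differed between genotypes whichever library was left out. It stood at 32.2, 31.7 and 32.9 CPM in stressed KO libraries 1 to 3, 30.9, 32.8 and 30.5 CPM in unstressed KO, 25.1, 28.1 and 25.6 CPM in stressed WT, and 22.3, 24.4 and 20.9 CPM in unstressed WT. All 6 KO libraries, between 30.5 and 32.9 CPM, lay above all 6 WT libraries, between 20.9 and 28.1 CPM. In stressed KO against stressed WT the log2 fold change was 0.30 ± 0.076 (SE, edgeR adjusted p = 0.130), which did not pass in edgeR but did in DESeq2. Averaged over stress levels it was 0.39 ± 0.054 (SE, edgeR adjusted p = 0.00408), and 6.33% of all tested genes were called in this comparison. Without unstressed WT libraries 1 and 2 it was 0.44 ± 0.06 (adjusted p = 0.0135), and over all 19 alternatives it lay between 0.36 and 0.44, with adjusted p up to 0.039.

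Of 23 genes for G proteins and effectors, 5 rose and 2 fell for stress in WT (median log2 0.11), where 21.9% of all tested genes were called. The adenylyl cyclase genes Adcy1 (0.72 ± 0.23, SE) and Adcy3 (0.39 ± 0.12), the Gs subunit Gnas (0.24 ± 0.080), the potassium channel subunit Kcnj9 (0.43 ± 0.14) and the regulator Rgs2 (0.38 ± 0.10) rose, and Adcy8 (-0.92 ± 0.17) and Gnai3 (-0.40 ± 0.13) fell. Each of these 7 calls ended without some single library, holding in between 1 (Gnai3 and Gnas) and 10 (Adcy8) of the 12 sets that leave out 1 library, and all ended without unstressed WT libraries 1 and 2. In unstressed KO against unstressed WT, Adcy1 (0.81 ± 0.23) and Rgs2 (0.29 ± 0.10) were higher and Adcy8 (-0.79 ± 0.17) lower, in 4 to 11 of the 12 sets that leave out 1 library and in none without unstressed WT libraries 1 and 2. Averaged over stress levels Plcb4, a phospholipase C, was lower in KO (-0.45 ± 0.090, edgeR adjusted p = 0.0207), and did not pass without unstressed WT libraries 1 and 2 (-0.43, adjusted p = 0.12) or in 3 of the 12 sets that leave out 1 library.

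Of 14 symbols of receptor partners and regulators, 12 were tested. For stress in WT 0 passed by edgeR, where 21.9% of all tested genes were called. At an unadjusted p under 0.05 there were 3 (Adarb1, Adrbk1 and Grk6), against 38.2% of all tested genes, and DESeq2 called 1, Adarb1. In unstressed KO against unstressed WT, Grk5, a receptor kinase, was higher (0.32 ± 0.10, SE), and Arrb2, a beta-arrestin (-0.27 ± 0.078), and the editing enzymes Adarb1 (-0.46 ± 0.16) and Adar (-0.28 ± 0.088), which act on Htr2c transcripts, were lower, where 23.2% of all tested genes were called. These 4 calls held in 3 to 8 of the 12 sets that leave out 1 library and ended without unstressed WT libraries 1 and 2. Averaged over stress levels, Adar (-0.31 ± 0.062, edgeR adjusted p = 0.0202) and Arrb1 (-0.26 ± 0.066, adjusted p = 0.0418) were lower in KO. Adar stood between 173.3 and 209.3 CPM in the 6 KO libraries and between 216.2 and 258.6 CPM in the 6 WT libraries, without overlap. Without unstressed WT libraries 1 and 2, Adar had -0.37 (adjusted p = 0.0595) and Arrb1 -0.18 (adjusted p = 0.23). With 1 library left out, the Adar call held in 9 of 12 sets and the Arrb1 call in 1 of 12. For stress in KO and for genotype with stress, 0 of the 47 tested genes of the 4 lists passed by edgeR, against 0.0197% and 0.25% of all tested genes. At an unadjusted p under 0.05 there were 3 (Ddc, Plcb4 and Arrb2) and 8, against 9.2% and 13% of all tested genes. DESeq2 called 0 and 3 (Maob, Plcb4 and Adar).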

How the data were processed

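RNA from the medial prefrontal cortex was sequenced as 12 libraries, 3 in each of 4 groups. The authors deposited 1 table of estimated counts per gene symbol, as RSEM gives them, with decimals in 874 to 1032 genes per library but in 0 of the 10 receptor genes. Per the submitters' processing notes the tools include RSEM 1.3.1 for the counts, STAR 2.7.9a, Trim Galore 0.6.6 and DESeq2 1.36.0, and the genome build is mm10. Which annotation and strand setting were used is not stated in the labels.

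Estimated counts were rounded to whole numbers. Of 24411 symbols, 4800 had no count and 4412 fell under the filter on low counts (filterByExpr with a minimum count of 10 and a minimum total of 15), so 15199 were tested. All were fitted together with edgeR 4.0.16 (R 4.3.3, limma 3.58.1) by its quasi-likelihood test with TMM factors, 4 group means and 8 residual degrees of freedom. P-values are two-sided, Benjamini-Hochberg adjusted over all 15199 genes, with a threshold of 0.05, and intervals are 95%. The smallest p of an exact permutation test with 3 libraries a group is 0.1. Alternatives were DESeq2 1.42.0, its size factors, no filter, a replicate block, only the 2 groups compared and each library left out. The script was tested on simulated data. Replicates differed beyond sampling noise (chi-square per degree of freedom 5.07 to 72.1). Exon lengths came from the GENCODE annotation of GRCm38 and promoters from RefSeq. A prior count of 2 entered log2 CPM.

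The 10 receptors and the other gene lists were chosen with earlier results of these data known. All receptors are named. For each, the 3 tested genes with the highest Pearson correlation of log2 CPM are named (mean of at least 1 CPM, unnamed gene models left out; 2 of these genes are not reported here), and from 4 other lists (other serotonin receptors; synthesis, transport and breakdown; G proteins and effectors; receptor partners and regulators) the genes that passed are named. Counting intervals cover counting error only.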

Additional observations from a re-analysis of the deposited data

How the results depend on the processing

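For the 10 receptors, 1335 of 1370 values under an alternative kept their direction where called and their side of the threshold, 18 passed newly, 17 no longer passed and 0 called values reversed, while some values that were not called changed sign. Most of the 1335 were called in neither fit, since only Htr3a and Htr7 for stress in WT were called with all libraries. Over 20 alternatives the Htr3a call held in 14 and the Htr7 call in 9. Most of the 18 new passes came without unstressed WT library 3. Of 556 values under an alternative for the other listed genes that were called, 270 no longer passed and 1 reversed, Adcy1 for stress in WT with the olfactory bulb covariate (log2 -0.0047). The numbers of genes called moved more. With DESeq2 size factors the interaction called 198 genes against 0, and with no filter 143. DESeq2 called 44 for stress in KO (against 3), 299 for genotype with stress (38), 1844 for the interaction (0), 1200 for the average stress effect (6) and 1920 for the average genotype effect (962). With only the 2 groups compared, stress in WT called 1 (3322) and genotype without stress 18 (3529). Without unstressed WT libraries 1 and 2 the counts were 0 for stress in WT, 18 for genotype without stress, 86 with stress, 1 for the average stress effect and 78 for the average genotype effect. Without stressed KO library 1 as well they were 3 for stress in WT, 9 in KO, 28 for genotype without stress and 111 for the average genotype effect. With the olfactory bulb covariate they were 0 for stress in WT and 6 in KO, 14 for genotype without stress, 70 with stress, 1 for the average stress effect and 47 for the average genotype effect. These last 3 alternatives were chosen after seeing the data. Leaving out each library in turn gave 0 to 5536 calls for stress in WT and 1 to 5 in KO, 238 to 5594 for genotype without stress, 19 to 123 with stress, 0 to 3796 for the interaction, 2 to 2985 for the average stress effect and 168 to 3309 for the average genotype effect. Fewer libraries also widen the errors, and apart from that the cause of these shifts was not tested.

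Libraries of different groups share replicate numbers, and their deviations from the group means correlated between -0.246 and 0.364. For unstressed WT and unstressed KO the values were 0.255, 0.0471 and 0.364 for libraries 1 to 3, all above 0. The other pairs of groups had mixed signs or values below 0. The numbers were not taken to pair libraries, though this does not exclude a pairing of unstressed WT and unstressed KO. With a replicate block the average stress effect called 25 genes, the other counts stayed within 1.5 times, and Htr7 for stress in WT had -0.53 (adjusted p = 0.057). The block also ended 6 calls of the other listed genes: Gnas for stress in WT (adjusted p = 0.052), and Gch1 (0.0572), Rgs2 (0.0713), Adarb1 (0.0531), Adar (0.0616) and Grk5 (0.0562) for genotype without stress. Htr4 and Htr1d had 3 to 89 and 8 to 59 counts per library, and for both, libraries of the same group differed beyond counting error. In stressed KO the counting interval of library 1 lay above those of libraries 2 and 3 for both genes. In unstressed WT that of library 1 lay below those of libraries 2 and 3 for Htr4. For Htr1d those of unstressed WT libraries 1 and 2 lay above that of library 3.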

Other observations

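The ratio of Htr1a to Htr2a counts, 2 pyramidal neuron receptors with opposed actions, was 1.39, 0.759 and 0.859 in stressed KO libraries 1 to 3, 0.690, 0.931 and 0.609 in unstressed KO, 0.580, 0.692 and 0.822 in stressed WT, and 0.449, 0.471 and 0.858 in unstressed WT. The highest value was in the library with raised striatal markers and the lowest values were in the libraries with raised olfactory bulb markers. Without those 3 libraries the ratio lay between 0.580 and 0.931. Only library 3 was then left of unstressed WT, and its 0.858 lay above all stressed WT values (0.580 to 0.822). The other pairs of groups overlapped.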
